A study of Mus musculus with 7 samples.

Results

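The cells described here are aortic fibroblasts that carry several genes of the Pi16 and Dpp4 type of adventitial fibroblast, and they numbered 5521 of 76359 barcodes, or 5521 of 68662 cells that passed the cell filters. Fibroblasts of this type lie in the outer coat of arteries and in the fascia and reticular interstitium of other organs. In mouse they are described as a reservoir from which other fibroblasts arise, and in fat depots cells with Dpp4 are progenitors of preadipocytes. They are known for the surface proteins Cd34 and Ly6a, for microfibrils and for a loose matrix rich in hyaluronan, a long sugar chain that holds water and is built from UDP-glucuronate and UDP-N-acetylglucosamine.

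A cell was taken when it held at least 1 unique molecular identifier (UMI, a counted transcript) of Pdgfra, none of Ptprc or Pecam1 and at most 2 of Myh11, and when at least 3 of 6 genes had a UMI. The 6 genes were Pi16, a peptidase inhibitor, Dpp4, a cell-surface dipeptidyl peptidase, Pcsk6, a proprotein convertase, Sema3c, a secreted semaphorin, Pla1a, a phospholipase of phosphatidylserine, and Smpd3, a neutral sphingomyelinase. Cells with more than 2 of the inflammatory genes Il6, Lif, Ptgs2 and Has1 were left out. Without the rules on the 6 and on the inflammatory genes, 26657 cells passed as Pdgfra fibroblasts, so the gated cells were 20.7% of these and 8.04% of kept cells. Because the cells were chosen by their own counts, every contrast of gated cells with other fibroblasts, or of gated cells with each other, is a description with no test.

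All aortas came from mice on a high-salt diet for 3 weeks. The endothelial knockout (4 libraries, Slc38a2deltaEC) is labelled as lacking, in endothelial cells, Slc38a2, which encodes an amino acid carrier driven by sodium, and the flox control (3 libraries, Slc38a2flox/flox) carries the floxed alleles of that gene. The Cre driver, age and sex are not given in the labels, nor is it said that each library is a separate animal, so a p-value weighs a difference against the spread of these libraries only. Fibroblasts are not the targeted cell type, and the genotype comparison asks how these cells differ in aortas whose endothelium was targeted. Single cells were captured on the BD Rhapsody system after enzymatic digestion of the tissue.

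Library depth ran between 22646246 and 73102988 UMIs, and the gated cells held 1371659 to 8906503 UMIs per library. Gated cells numbered 1085, 951, 492 and 929 in endothelial knockout libraries 1 to 4, against 584, 1218 and 262 in flox control libraries 1 to 3. Endothelial knockout 4 and flox control 3 stood apart by shallow cells: the median gated cell had 7487, 7452, 7251.5 and 5082 UMIs in the endothelial knockouts, against 7032, 6803 and 4865 UMIs in the flox controls. Any pair of libraries shared 68 to 218 barcodes and at most 4 gated ones, and 30 gated cells had a barcode that was also gated in another library. Scrublet called 0 to 3 gated cells per library as doublets. The labels name goblet cells as the cell type, and 6 goblet genes together had 14 of 39598702 UMIs in the gated cells, with Tff3, Clca1 and Agr2 at 0.

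Pi16 (ENSMUSG00000024011) lies on chromosome 17 at 29317680 to 29330593 on the plus strand of GRCm38. Dpp4 (ENSMUSG00000035000) lies on chromosome 2 at 62330073 to 62412231 on the minus strand, and Ugdh (ENSMUSG00000029201), UDP-glucose dehydrogenase, which makes the UDP-glucuronate of hyaluronan, on chromosome 5 at 65413221 to 65435949 on the minus strand. On the same chromosome as Ugdh, Sema3c spans 17574281 to 17730268 on the plus strand. The targeted Slc38a2 lies on chromosome 15 at 96687392 to 96699730 on the minus strand. Smpd3 overlaps Prmt7, and how the counting assigned reads of overlapping genes is not given in the sources used here.

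The label of Pi16 and Dpp4 cells was met unevenly by the gated cells. Pi16 had a UMI in 97.8% of them (95.4% to 99.3% by library), Sema3c in 94.5% and Pcsk6 in 91.3%. Dpp4 had one in 23.8% (15.1% to 39.2%), Pla1a in 1102 cells (13.7% or more in each library) and Smpd3 in 33.1%. Most gated cells thus passed on Pi16, Pcsk6 and Sema3c and had no Dpp4 UMI: 2824 cells, 51.2%, held just those 3 of the 6 genes. The next most frequent combination added Smpd3 (490 cells), and 417 cells, 7.55%, held all 6.

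Ugdh, which the gate did not use, had a UMI in 72.2% of gated cells (66.8% to 77.4% by library). Cd34 was detected in 98.5% and Ly6a in 97.8%. The median gated cell had 6740 UMIs. In leukocytes, which should lack Pi16 and had a median of 3933 UMIs, Pi16 was seen in 6.87% and Ugdh in 18.7% of cells. Other Pdgfra fibroblasts, those with 0 or 1 of the 6 genes and at most 2 inflammatory ones (6518 cells, median 3373 UMIs), had Pi16 in 50.8%, Ugdh in 37.1%, Cd34 in 78.7% and Ly6a in 73.9%. Pi16 alone therefore did not set the gated cells apart from the remaining fibroblasts, while Dpp4 (0.199%) and Pla1a (0.107%) were rare in the others, which the gate brings about.

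Fibroblasts just outside the threshold, with exactly 2 of the 6 genes, numbered 6665, and those just inside, with exactly 3, numbered 3575. There were 965 cells with 4, 564 with 5 and 417 with 6. Since deeper cells show more genes, these steps were compared in fibroblasts of 5000 to 10000 UMIs only. Between 3 and 2 genes the cells were close: Ugdh was detected in 65.1% of cells with 3 and 60.8% of cells with 2, Cd55 in 26.2% and 22.7%, Fmod in 62.9% and 66.3%, and Hhip in 58.9% and 70.6%. Fmod, a collagen-binding proteoglycan, and Hhip, a decoy receptor of hedgehog ligands, mark another aortic fibroblast class. For these 4 genes the larger steps lay inside the gate, between 3 and 5 genes.

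Over 3, 4, 5 and 6 genes, Cd55, which shields cells from complement, was detected in 26.2%, 46.7%, 80.5% and 95.1% of cells of this depth. Efhd1, a calcium-binding mitochondrial protein, was detected in 8.04%, 31.1%, 70.5% and 88.9%, and the ligand Wnt10b in 6.66%, 29.0%, 50.3% and 63.1%. Fmod went the other way, with 62.9%, 27.5%, 6.16% and 3.69%, and so did Hhip, with 58.9%, 26.8%, 5.14% and 4.10%. Mgp, the matrix inhibitor of calcification, was in 97.5%, 84.4%, 59.6% and 47.5% of cells. None of these genes was part of the rule, but they come from the same cells that it ordered. The cell numbers at this depth were 2101, 473, 292 and 244.

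**Figure D1:**
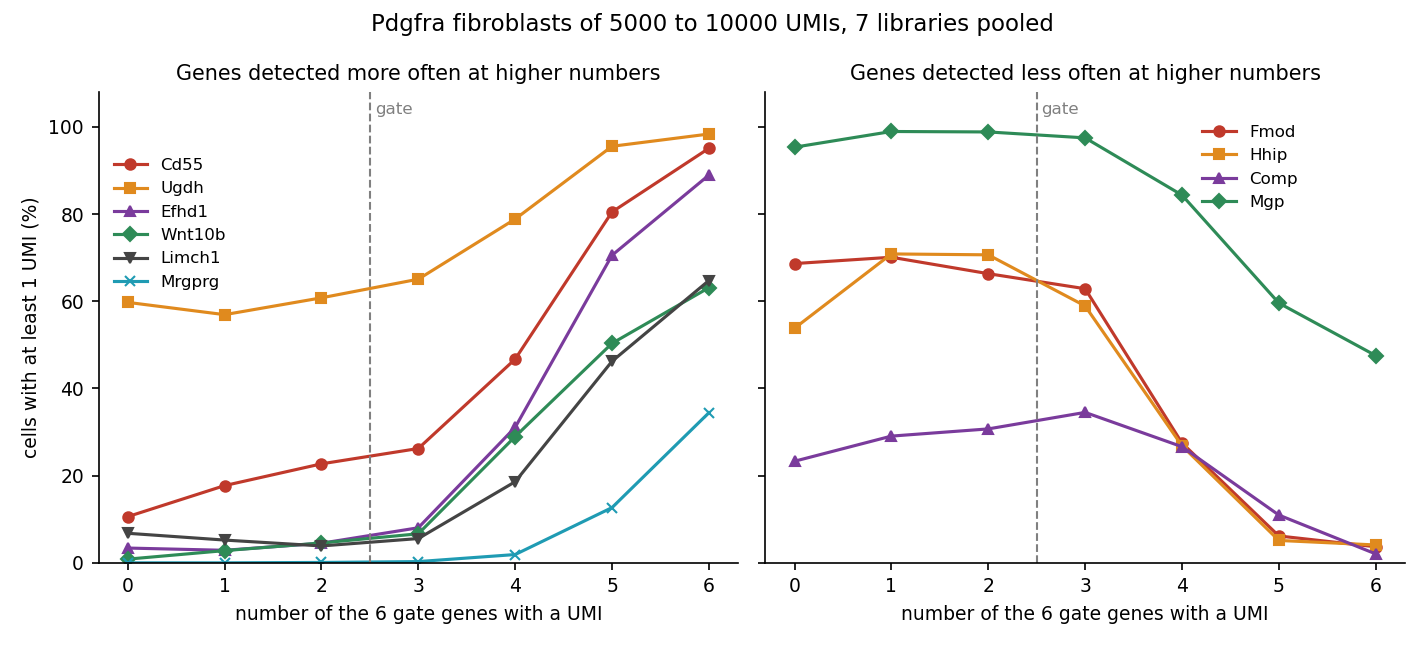
Share of Pdgfra fibroblasts of 5000 to 10000 UMIs with at least 1 UMI of a gene (y axis, percent) by the number of the 6 gate genes detected (x axis), all 7 libraries pooled; the dashed line marks the gate. Cd55, Ugdh, Efhd1, Wnt10b, Limch1 and Mrgprg are more frequent at 5 and 6 genes, while Fmod, Hhip, Mgp and, from 4 genes on, Comp are less frequent. For each gene the step between 2 and 3 genes is smaller than that between 3 and 4 and that between 4 and 5. Mrgprg rises most between 5 and 6 genes.

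Mrgprg, a Mas-related G protein-coupled receptor, was rare below 5 genes. At this depth it was seen in 0.0894% of cells with 2 genes, 0.286% with 3, 1.90% with 4, 12.7% with 5 and 34.4% with 6. Tek, the angiopoietin receptor, was seen in 4.14% of cells with 3 genes and 57.4% of cells with 6. Cd34, by contrast, was near saturation inside the gate, with 98.7% at 3 genes and 100% at 6.

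Dpp4 divided the gated cells in the same way when UMIs of Pi16, Pcsk6 and Sema3c were required. The levels of these genes were not held fixed and Pla1a and Smpd3 were left free. The split is thus not independent of the number of gate genes. Among gated cells with UMIs of Pi16, Pcsk6 and Sema3c, 1068 had Dpp4 and 3573 did not. Pla1a was found in 60.7% of cells with Dpp4 and 7.25% of those without, Smpd3 in 57.8% and 16.7%, and Ugdh in 92.1% and 66.5%. Per library, Ugdh in cells with Dpp4 was 1592, 1717, 1889.9 and 1663 UPM (UMIs per 1000000 UMIs of the cells in question) in endothelial knockouts 1 to 4 and 2219.6, 2155 and 1542 in flox controls 1 to 3. In cells without Dpp4 it was 449.6, 436, 534 and 473 in the endothelial knockouts and 411, 458 and 483 in the flox controls. The values with and without Dpp4 did not overlap across the 7 libraries, and the median UMIs per cell were 4522 to 8463 with Dpp4 and 4984 to 7424 without it.

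Many gated cells also carried genes of other fibroblast classes. Fmod and Hhip together were found in 1582 gated cells, 28.7%, with 33.0%, 28.4%, 29.5% and 12.3% in endothelial knockouts 1 to 4, against 42.0%, 32.7% and 19.8% in flox controls 1 to 3. At least 2 of Cilp, Myoc and Angptl1 were found in 687, 12.4%. Neither Fmod nor Hhip was detected in 90.5% of cells with 5 or 6 genes (68.5% to 98% by library), 67.6% of cells with 4 and 26.9% of cells with 3 (15.9% to 44.4%). Cells with 5 or 6 genes numbered 981, 17.8% of gated cells: 172, 166, 78 and 279 in the endothelial knockouts and 54, 182 and 50 in the flox controls.

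The exclusion of inflammatory cells took out a large share of cells that met the other rules. Of 9251 fibroblasts with at least 3 of the 6 genes, 3730, or 40.3%, held more than 2 of Il6, Lif, Ptgs2 and Has1. The share was 21.5%, 46.0%, 60.0% and 36.3% in endothelial knockouts 1 to 4, against 46.9%, 35.0% and 41.3% in flox controls 1 to 3. Among fibroblasts with 5 or 6 genes it was 45.5%, 818 of 1799. The number of gated cells in a library therefore depends on its inflammatory cells too, and these differed by library within both genotypes.

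Levels of the gate genes and of Ugdh, in UPM and averaged over 7 libraries, gave the order of classes for each gene. The levels of different genes were not compared with each other. Ugdh was 1991 ± 323 (SD, n = 7) in cells with 5 or 6 genes, with 1622.5, 2027, 1973 and 1877 in the endothelial knockouts and 2546, 2231 and 1657 in the flox controls. It followed with 1177 ± 265 in the inflammatory fibroblasts, 756 ± 95.1 in all gated cells and 393 ± 334 in cells with at least 2 of Cilp, Myoc and Angptl1, where flox control 3 had 1145 from 19 cells and the other libraries 219.6 to 319. Cells with 3 of the 6 genes had 351 ± 41.8 and those with exactly 2 had 242 ± 49.6. Other fibroblasts had 197 ± 37.1, the cells with both Fmod and Hhip 175 ± 41.0, smooth muscle 87.2 ± 31.8, endothelial cells 78.6 ± 24.5 and leukocytes 71.4 ± 28.5. The classes named for Fmod and Hhip and for Cilp, Myoc and Angptl1 held only cells with fewer than 3 of the 6 genes. They thus share cells with the other fibroblasts and with those of exactly 2 genes, and leave out gated cells. Smooth muscle, endothelial cells and leukocytes did not differ beyond their spread, nor did the other fibroblasts and those with Fmod and Hhip, which overlap in cells. The libraries of the 5 or 6 gene cells, 1622.5 to 2546, did not overlap those of the inflammatory class, 849.8 to 1492. The inflammatory class had no limit on the 6 genes: of its 7953 cells, 3730 held at least 3 of them and 818 held 5 or 6. Inflammatory cells with 5 or 6 genes were not compared separately.

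Pi16 was 3183 UPM in cells with 5 or 6 genes, 1909 in all gated cells, 1233 in inflammatory fibroblasts and 527 in the others. The rule chose cells by the gate genes, so their high levels in cells with 5 or 6 genes are in part built in. Its gated level was 1193, 1719, 1608 and 2623 in endothelial knockouts 1 to 4, against 1592, 2105 and 2525 in flox controls 1 to 3, so the shallow libraries endothelial knockout 4 and flox control 3 were highest in each genotype. Dpp4 showed the same order, with 69.6, 97.2, 91.5 and 222 in the endothelial knockouts and 56.6, 80.1 and 156 in the flox controls. Over classes, Dpp4 was 449 in cells with 5 or 6 genes, 110.5 in all gated cells, 53.3 in inflammatory fibroblasts and 13.3 in leukocytes, some of which are known to carry it on their surface. Sema3c was not particular to fibroblasts, with 684 in gated cells and 252 in smooth muscle, where 50.7% of cells had a UMI.

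**Figure D2:**
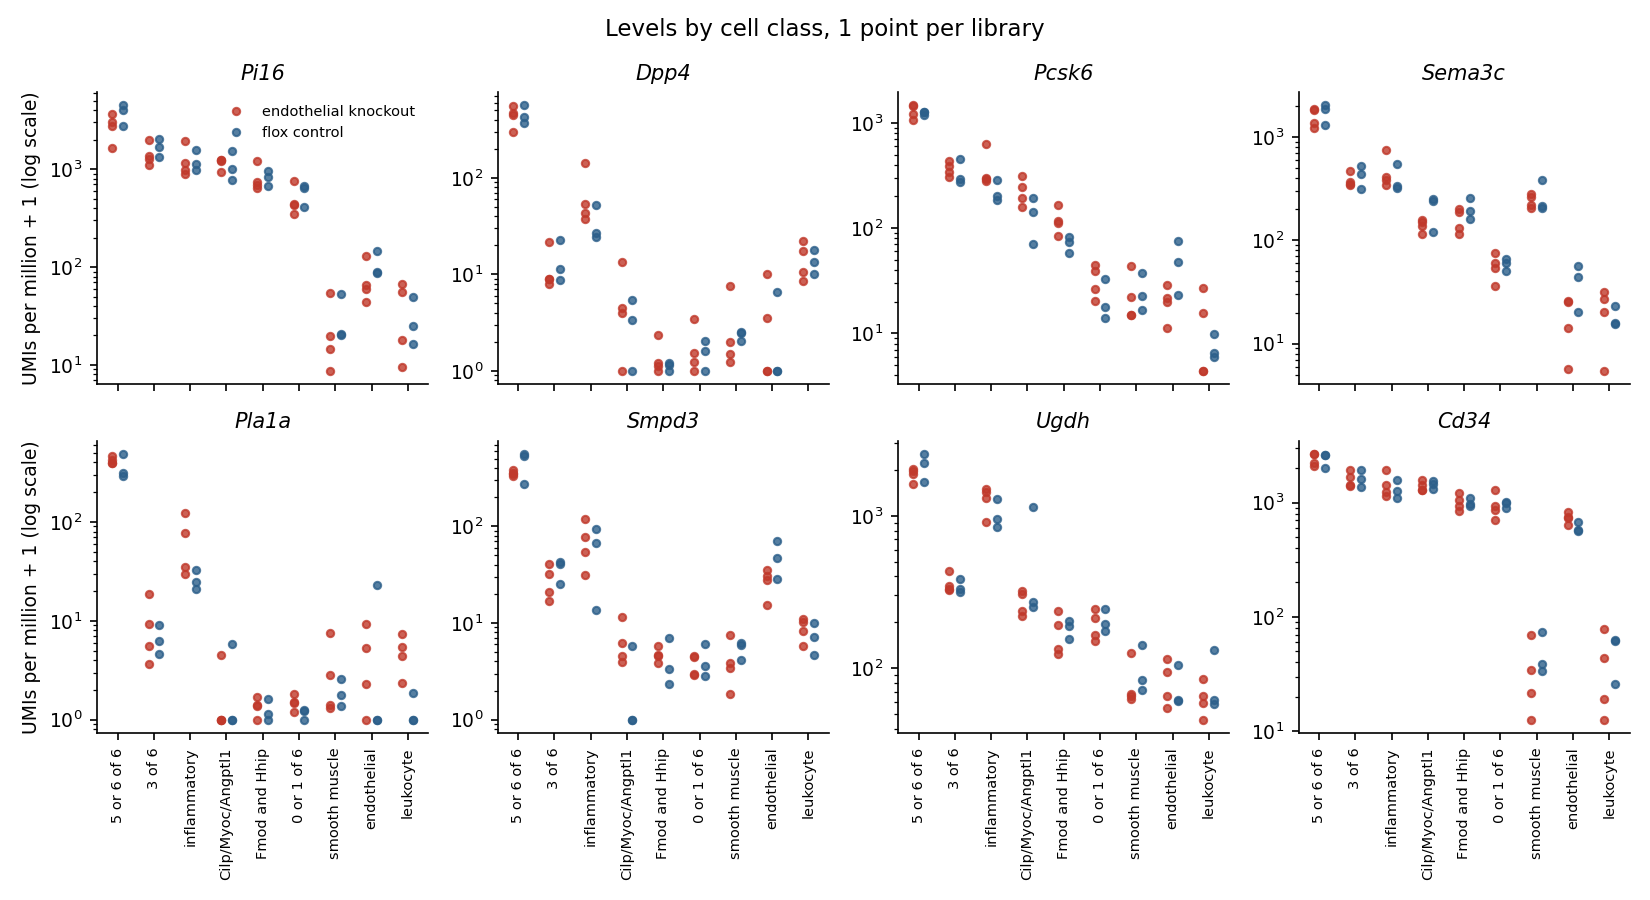
Levels of the 6 gate genes, Ugdh and Cd34 by cell class (x axis), in UPM plus 1 on a logarithmic y axis, with 1 point per library coloured by genotype. The mean of the cells with 5 or 6 of the 6 genes is highest for each gene shown. For the 6 gate genes the rule in part brings this about, while Ugdh and Cd34 were not part of the rule. The inflammatory fibroblasts carry Ugdh at 849.8 to 1492 UPM, and the libraries of both genotypes are mixed within each class.

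Cells with 5 or 6 genes were then set against cells with exactly 3, as the log2 ratio of UPM plus 1 within each library. Of 8419 genes of at least 10 UPM, 1268, or 15.1%, were higher in all 7 libraries and 1023, or 12.2%, lower, with a median log2 ratio of 0.05. Outside the gate genes, the largest mean ratio was that of Mrgprg. It was 133, 142, 91.8 and 164 UPM in the endothelial knockouts and 94.8, 103 and 64.5 in the flox controls, and averaged 113 against 1.02 in cells with 3 genes, a log2 ratio of 6.0 ± 0.66. The ratios of genes near 0 in cells with 3 genes depend on the added 1 UPM.

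Several of the genes high in cells with 5 or 6 genes encode ligands. Bmp6 was 64.5 against 3.01 UPM, Bmp3, a bone morphogenetic protein that opposes the others, 129 against 10.3, and Sema3e, which binds plexin D1, 133 against 8.45. Edn1, the endothelin 1 precursor and a strong vasoconstrictor, was 54.4 against 4.26, and Wnt10b 143 against 14.6 with a log2 ratio of 3.21 ± 0.27. Wnt10b was among the most even of these over libraries, at 124, 178, 132 and 136 in the endothelial knockouts and 143, 153 and 133 in the flox controls.

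Further genes of this group were Akr1c18, an enzyme that inactivates progesterone (51.7 against 0.804), Islr2 (54.3 against 4.07), Basp1, a membrane protein of growing axons (212 against 12.4), Car8 (127 against 9.5), Limch1, an activator of non-muscle myosin (184 against 13.4), Tek (115 against 10.4), Efhd1 (299.9 against 20.4), Olfml2a (157 against 14.7) and Cd55 (903 against 86.5). Each was higher in all 7 libraries.

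The genes lowest in cells with 5 or 6 genes were headed by Hhip, with 18.0 against 847 UPM and a log2 ratio of -6.13 ± 1.94, and Fmod, with 16.2 against 782 and -5.99 ± 1.69. Hhip had no UMI in the cells with 5 or 6 genes of endothelial knockout 3 and Fmod none in those of flox control 3, and these 2 libraries gave the lowest ratios. Further genes were Egflam, a matrix protein (3.39 against 67.0 UPM), Comp, cartilage oligomeric matrix protein (18.1 against 222), Rbp4, the retinol carrier (24.7 against 384), Lsamp (8.50 against 119), Pdgfrl (19.9 against 273), the growth factor Mdk (8.37 against 104) and Cpxm2 (36.6 against 383). Ndufa4l2, Tmem204, Esm1, Fbln7 and Spry1 had log2 ratios of -4.11 to -3.46. Mgp was 363 against 3676.

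Against other fibroblasts, the gated cells as a whole differed less. Of 8487 genes, 1033, or 12.2%, were higher in all 7 libraries and 902, or 10.6%, lower. The largest ratios were Efhd1 (83.9 against 8.24 UPM, log2 ratio 3.17 ± 0.68), Myoc, myocilin (119 against 18.1), Cd55 (285 against 41.8), Fn1, fibronectin (2448 against 357), and Cmah, which hydroxylates sialic acid (88.6 against 15.5). Tmem100, Procr, the protein C receptor, Emilin2, Fbn1, fibrillin 1, Ccl2, a monocyte chemokine, and Anxa3 had log2 ratios of 1.8 to 2.07. Ugdh had 756 against 197, a log2 ratio of 1.95 ± 0.37.

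Lower in gated cells than in other fibroblasts were Smoc1 (21.5 against 102 UPM), Cytl1, a secreted cytokine-like protein (48.8 against 216), Apoe, apolipoprotein E (159 against 476), Cp, ceruloplasmin (207 against 599), and Mgp (2723 against 6757, log2 ratio -1.32 ± 0.20). Rgs5 and Mylk, known from mural cells, had -1.79 and -1.63. The 2 classes differed in depth, since the median gated cell of a library held 4865 to 7487 UMIs, against 2509.5 to 4124 in other fibroblasts. After every cell was thinned to 2000 UMIs and gated anew, the ratio of Ugdh was 2.08 ± 0.27, and of the 30 genes named by size 14 were named again.

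**Figure D3:**
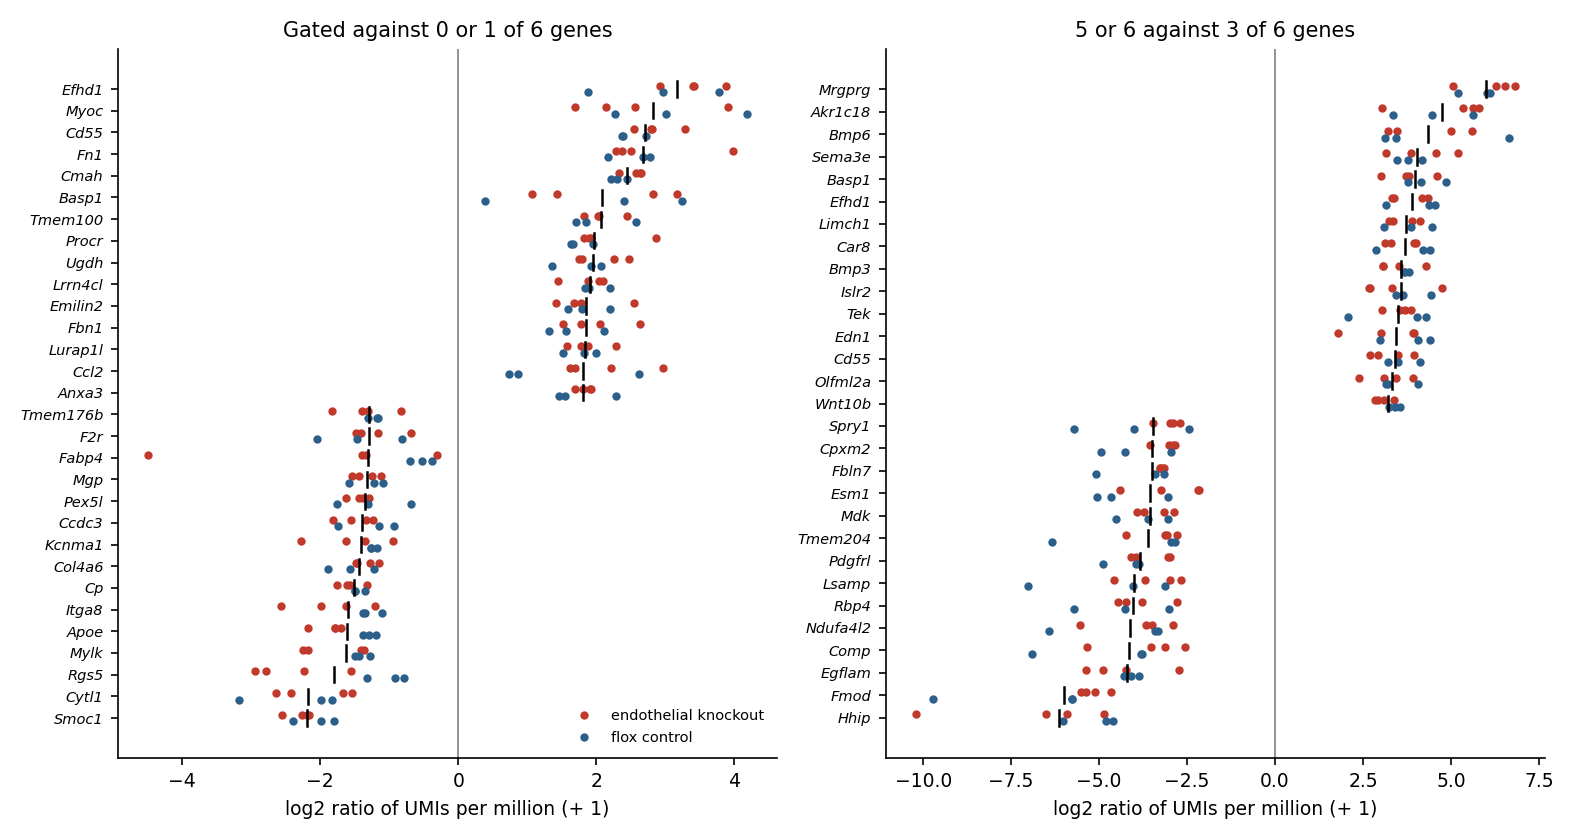
Log2 ratio of UPM plus 1 (x axis) for genes with the largest ratios (y axis), gated against other fibroblasts on the left and 5 or 6 against 3 genes on the right, with points for the 7 libraries coloured by genotype and a vertical mark for the mean. Hhip and Fmod spread widest, and the points of each named gene lie on the same side of 0 in all 7 libraries.

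Gene groups filled in the picture, and their counts stand beside those over all genes. In the contrast of 5 or 6 with 3 genes, 15.1% of all genes were higher and 12.2% lower in all 7 libraries. Against other fibroblasts these shares were 12.2% and 10.6%. After thinning, 799 of 8441 genes were higher and 716 lower. Of 30 genes known from Pi16 and Dpp4 fibroblasts of other organs, 29 were above the minimum in the contrast of 5 or 6 with 3 genes, and 26 of them were higher in all 7 libraries, with a median log2 ratio of 1.85. They include Gfpt2, the first enzyme of the hexosamine route (2302 against 609 UPM), Ackr3, a scavenging chemokine receptor (1645 against 465), Creb5 (755 against 153), Axl, the Gas6 receptor (1397 against 538), Mfap5, a microfibril protein (2343 against 1007), Cd248 (449 against 119.8), and Procr (269.6 against 52.3). Clec3b, Pcolce2 and Igfbp6 were not higher in all 7, with log2 ratios of -0.07, 0.19 and 0.17. Against other fibroblasts 26 of 27 were higher in all 7, with a median of 1.2. The list was drawn with earlier results of these data known.

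Most hyaluronan genes were higher in cells with 5 or 6 genes. Of 11 genes above the minimum, 9 were higher in all 7 libraries in cells with 5 or 6 genes, with a median of 1.72. These were the enzymes of the sugar precursors, with Ugdh, Gnpnat1 (135 against 30.7 UPM) and Uap1 (818 against 233), the synthase Has2 (87.6 against 14.4), and the binding proteins Tnfaip6 (903 against 264), Vcan, versican (629.7 against 243), and Cd44, the receptor (592 against 307). In the contrast with other fibroblasts 11 of 12 were higher and Hyal1, a hyaluronidase, was lower (9.02 against 12.9). After thinning to 2000 UMIs, 9 of 11 were higher and none lower, with a median of 1.30.

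Of 25 collagens and collagen-processing enzymes, 15 were lower and 4 higher in all 7 libraries in cells with 5 or 6 genes, with a median of -0.49. Of the 16 collagens among them, 8 were lower and 2 higher. Col1a1 was 4767 against 10569 UPM, Col1a2 4835 against 10106 and Col15a1 44.9 against 259, while Col14a1 (3598 against 2073) and Col12a1 (333 against 90.3), which decorate fibrils, were higher. Of 17 elastic fibre genes, 7 were higher and 6 lower. The higher ones included Fbn1 (3097 against 563), Efemp1 (807 against 182) and Loxl1, a crosslinking enzyme (636 against 399). The lower ones included Mfap4 (228 against 2127) and Fbln1 (413 against 1308). Among 18 proteoglycans and matrix glycoproteins just Fn1 (5661 against 1082) and Tnxb (740.4 against 345) were higher, and 9 were lower. Between gated and other fibroblasts these lists were mixed, and their counts differed after thinning. Of the 25 collagen genes and enzymes 11 were higher and 4 lower (median 0.26), but 6 higher and 10 lower after thinning (-0.21). Of the elastic fibre genes 6 were higher and 1 lower (0.03), against 6 and 4 after thinning (-0.07), and of the proteoglycans and glycoproteins 7 were higher and 7 lower (0.11), against 5 and 9 after thinning (-0.14).

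Signalling genes split within each family. Of 12 Wnt pathway genes, Wnt10b, Wnt2 (71.3 against 19.5 UPM), Wnt11 and Wnt5b were higher in cells with 5 or 6 genes, and Sfrp2, Dkk3, Wnt5a, Sfrp1 (259.6 against 518) and Tcf4 lower. Of 23 genes of the TGF-beta and BMP families 8 were higher, among them Bmp6 and Bmp7 (19.7 against 0.708), and 5 lower, among them Gdf10 (233 against 1328) and Bmp4 (35.2 against 171). Of 17 growth factor genes 3 were higher, Fgf2 (283 against 61.4), Igfbp5 (13490 against 4144) and Fgfr1, and 8 lower. In the contrast of gated with other fibroblasts, 7 of 11 osteochondral genes and 5 of 15 adipogenic genes were lower, with medians of -0.52 and -0.38, and none of the osteochondral and 2 of the adipogenic genes (Ebf1 and Ebf2) were higher. After thinning, 4 of 10 osteochondral genes were lower and 1 (Sox5) higher, with a median of -0.52, and of 13 adipogenic genes 4 were lower and 3 higher, with a median of -0.01. Over all genes, 12.2% were higher and 10.6% lower before thinning, and 799 and 716 of 8441 after it.

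The share of gated cells was next compared between genotypes. Of kept cells they were 10.7%, 9.38%, 4% and 12.7% in endothelial knockouts 1 to 4, against 4.94%, 10.6% and 4.74% in flox controls 1 to 3. Of Pdgfra fibroblasts they were 24.9%, 20.1%, 14.5% and 30.1% in the endothelial knockouts, against 15%, 23.2% and 13.6% in the flox controls. The groups overlapped in both measures. The endothelial knockouts averaged 22.4% ± 6.64 of fibroblasts (SD, n = 4) and the flox controls 17.3% ± 5.16 (SD, n = 3), and an exact two-sided permutation test (35 arrangements) gave p = 0.314, where 0.0286 is the smallest p this design allows. For the share of kept cells, 9.21% ± 3.74 (n = 4) against 6.77% ± 3.35 (n = 3), the exact permutation p was 0.371.

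The upper end of this share came from 1 library. With every cell thinned to 2000 UMIs, the gated share of fibroblasts was 10.9%, 10.5%, 9% and 23.4% in endothelial knockouts 1 to 4, against 7.70%, 12.5% and 10.5% in flox controls 1 to 3, with an exact permutation p of 0.686. Without endothelial knockout 4 the means were 10.1% in the endothelial knockouts and 10.2% in the flox controls, so the direction turned (exact permutation p = 0.9). Thinning left out 14449 kept cells below 2000 UMIs, 144 of them gated. Cells with 5 or 6 genes made up 3.94%, 3.5%, 2.30% and 9.03% of fibroblasts in the endothelial knockouts, against 1.39%, 3.46% and 2.59% in the flox controls (exact permutation p = 0.314). Endothelial knockout 4 was highest each time. It was also the endothelial knockout with the shallowest gated cells and the most red cell RNA, with summed globin and other erythroid genes at 1424 UPM against 3.98 to 330.2 in the other endothelial knockouts and 95.5 to 357 in the flox controls. Summed mesothelial markers were 29.1 UPM in its gated cells, against 1.57 to 3.78 in the other endothelial knockouts and 2.40 to 3.00 in the flox controls, with none of 9 genes at 0 over all libraries. Summed adipocyte markers were 3.54 UPM, against 0.225 to 0.811 in the other endothelial knockouts and 0.229 to 0.923 in the flox controls, with Lep, 1 of 7, at 0. Endothelial knockout 4 also had 254 smooth muscle cells, against 2188 to 3775 in the other endothelial knockouts and 1643 to 2339 in the flox controls. Smooth muscle cells count among kept cells but not among Pdgfra fibroblasts. The part of all these differences in the share of endothelial knockout 4 was not tested.

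**Figure D4:**
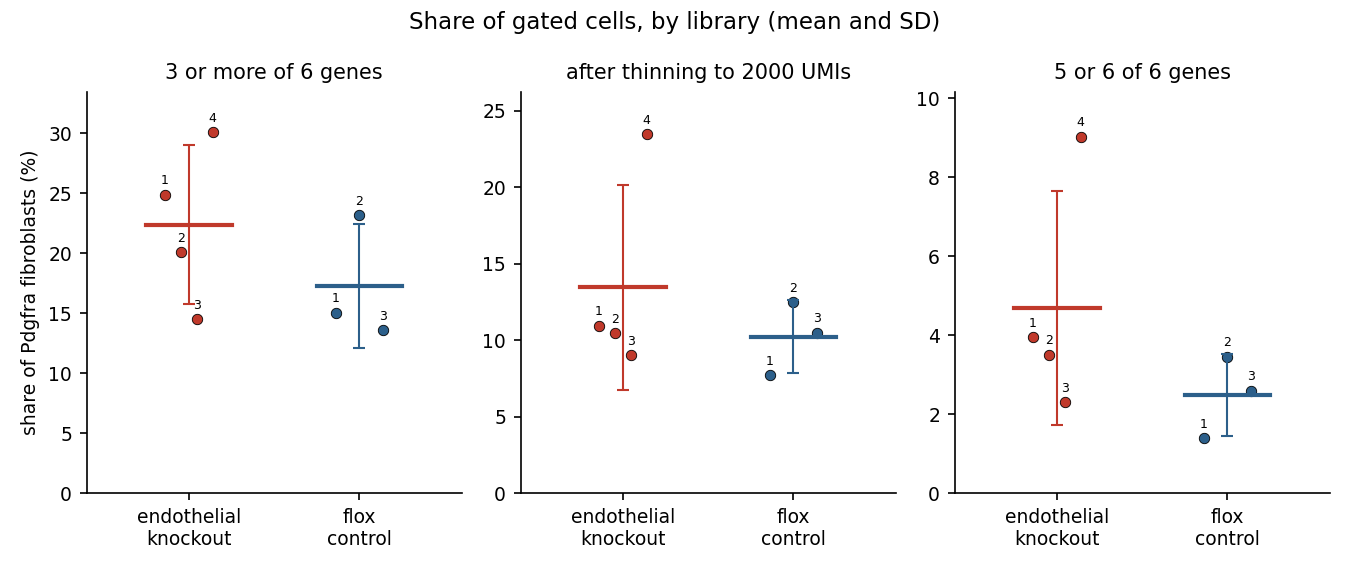
Share of gated cells among Pdgfra fibroblasts (y axis, percent) by genotype (x axis) at 3 or more genes, after thinning to 2000 UMIs and at 5 or 6 genes; points are libraries with their number, and lines and bars give mean and SD (n = 4 and 3). The genotypes overlap in each panel, and endothelial knockout 4 is the highest point at 30.1%, 23.4% and 9.03%.

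Slc38a2 was not called in the gated cells. It had 215, 401, 391 and 309.7 CPM (counts scaled like UPM, but to the tested genes and the TMM factor) in endothelial knockouts 1 to 4, against 414, 415 and 437 CPM in flox controls 1 to 3. The groups did not overlap, with endothelial knockout 1 lowest and endothelial knockouts 2 and 3 close to the flox controls. The log2 fold change was -0.36 (SE 0.20, unadjusted p 0.0992 by edgeR's quasi-likelihood test). In endothelial cells with Pecam1 and Cdh5, the targeted type, Slc38a2 was 218, 279, 345 and 290.4 UPM in the endothelial knockouts, against 436, 448 and 309.5 in the flox controls, and the groups overlapped. These values came from 46, 159, 196 and 326 cells in the endothelial knockouts and 81, 154 and 42 in the flox controls. The overlap rests on flox control 3, with 42 cells. Reads from RNA made of a deleted allele can still be counted, and which part of the gene was deleted is not given in the labels, so the count of the gene is a limited check.

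No gene passed in the comparison of the gated cells between genotypes: 0 of 11879 (0%) had an adjusted p under 0.05 in edgeR's quasi-likelihood test, 671 had an unadjusted p under 0.05, and DESeq2 called 4. Groups that do not overlap were found for 736 genes, 6.2%. The values below describe the 10 genes of smallest p among those of at least 4 mean log2 CPM, all with an adjusted p of 0.838. Each of these log2 fold changes kept its sign under all 18 alternative settings and left-out libraries. These reuse the libraries by which the genes were picked, so a kept sign is no separate check.

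Col8a1, a short-chain collagen of vessel walls, had 179, 147, 191.5 and 126 CPM in endothelial knockouts 1 to 4, against 102, 89.95 and 84.4 CPM in flox controls 1 to 3 (log2 fold change 0.80, SE 0.17). Cpeb1, which controls the tails of messenger RNA, had 157, 243, 315.5 and 122 CPM, against 76.8, 75.0 and 111 CPM (1.28, SE 0.30). Cmss1, named for a yeast protein of the small ribosomal subunit, had 107, 62.7, 102.5 and 76.5 CPM, against 308, 265 and 108 CPM (-1.40, SE 0.30). The groups did not overlap for any of these, although flox control 3 was close to endothelial knockout 1 in Cmss1. These 3 genes and Mki67 were the 4 that DESeq2 called, with adjusted p of 0.0426 for the 3.

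Col8a1 lies on chromosome 16 at 57624258 to 57754737 and Cmss1 at 57302000 to 57606864, both on the minus strand of GRCm38 and 17393 bases apart, with fold changes of opposite sign. Other genes lie within the span of Cmss1 on the other strand, and its count may hold their reads. In other Pdgfra fibroblasts of the same libraries the log2 fold changes were 0.53 for Col8a1, -1.49 for Cmss1 and 1.16 for Cpeb1.

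Among the remaining 7 genes, Hmgcs1, an enzyme of cholesterol synthesis, had 32.9, 46.1, 36.8 and 29.6 CPM in the endothelial knockouts, against 60.8, 69.1 and 50.5 CPM in the flox controls (log2 fold change -0.75, SE 0.17). Cyp51, of the same route, had the smallest p of all genes at a lower level, 11.2 ± 0.67 against 19.8 ± 3.44 CPM, and is named after its values were seen. Slc6a9, a glycine transporter, had 19.8, 21.9, 20.8 and 22.8 CPM, against 13.4, 14.1 and 9.80 CPM (0.71, SE 0.16). Flot1 of membrane rafts averaged 59.6 ± 7.78 against 39.5 ± 0.849 CPM and the mitochondrial C1qbp 25.1 against 16.8 CPM. Senp2, a SUMO protease, averaged 41.4 against 60.8 CPM and Thap12 58.3 against 80.4 CPM.

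Tagln, transgelin of smooth muscle, had 27.6, 19.2, 35.2 and 19.8 CPM in the endothelial knockouts, against 93.0, 29.0 and 127 CPM in the flox controls, with overlapping groups (-1.65, SE 0.40). It moved with other smooth muscle markers. Leaving out Myh11, which the gate limits, all 6 tested markers, Tagln included, had lower values in the endothelial knockouts (median log2 fold change -1.31). Of these, 5 had an unadjusted p under 0.05 in edgeR and none an adjusted one. Over all 11879 genes, 5957 were lower and 671 had an unadjusted p under 0.05. The summed level of the 8 listed markers other than Myh11 was 161, 111, 170 and 100 UPM in endothelial knockouts 1 to 4, against 693, 140 and 384 in flox controls 1 to 3. Flox control 2 thus lay within the range of the endothelial knockouts. Myh11 had a UMI in 46.7% of gated cells of flox control 1. It had one in 9.52% and 13.0% in flox controls 2 and 3 and 3.88% to 15.7% in the endothelial knockouts. None of the smooth muscle markers was at 0 in the gated cells, and the part of other cells' RNA in these values was not tested. Summed macrophage markers were 34.6 to 126 in the endothelial knockouts against 27.0 to 136 in the flox controls, and endothelial markers 19.9 to 29.7 against 13.1 to 31.6.

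**Figure D5:**
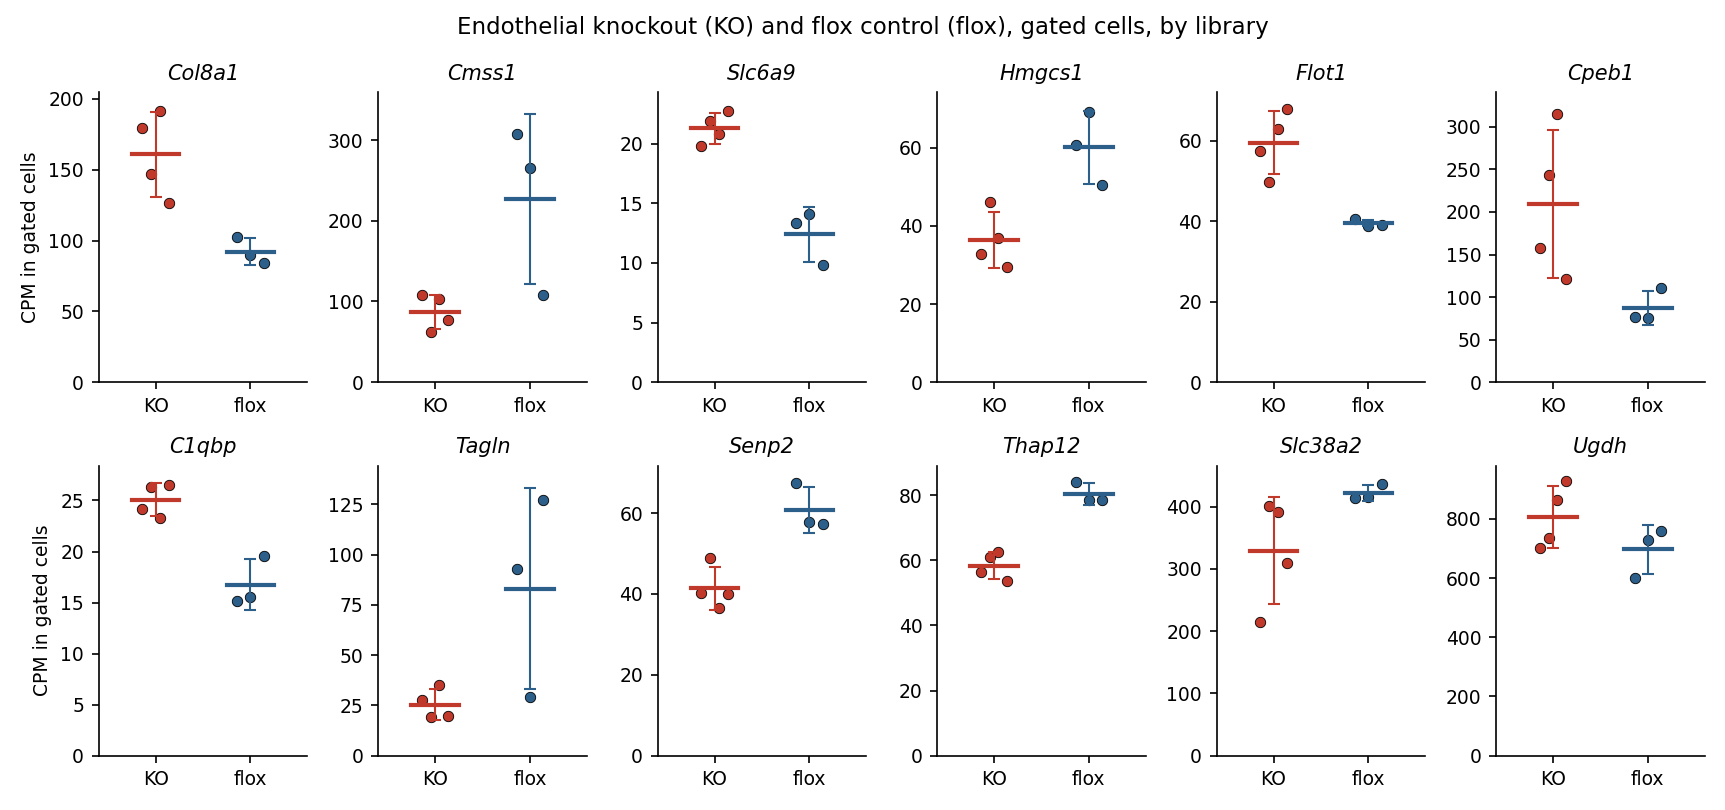
CPM in the gated cells (y axis) by genotype (x axis; KO, endothelial knockout; flox, flox control) for the 10 genes of smallest p, Slc38a2 and Ugdh, with points for libraries and lines and bars for mean and SD (n = 4 and 3). Col8a1 and Cpeb1 are higher and Cmss1 and Hmgcs1 lower in the endothelial knockouts without overlap of the libraries, while Tagln overlaps; no gene passed the test.

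No gate gene passed the test between genotypes. Pi16 averaged 1810 ± 628 CPM in the endothelial knockouts and 2073 ± 537 in the flox controls (log2 fold change -0.20, SE 0.27), Dpp4 122 ± 70.7 and 98.3 ± 55.9 (0.36, SE 0.43), and Sema3c 692 ± 215 and 684 ± 228 (0.02, SE 0.27). Pcsk6 had 613 ± 155 against 499 ± 145 CPM (0.30, SE 0.23), Smpd3 115 ± 25.1 against 119 ± 26.2 (-0.07, SE 0.19), and Ugdh 807 ± 106 against 697 ± 83.7 (0.21, SE 0.16). Pla1a had 101, 101, 73.3 and 162 CPM in endothelial knockouts 1 to 4, against 45.4, 54.4 and 109 CPM in flox controls 1 to 3 (0.72, SE 0.32, unadjusted p 0.044 in edgeR). Among the other genes of the rule, Pdgfra had 662 ± 40.5 against 807 ± 60.2 CPM without overlap (-0.29, SE 0.13, unadjusted p 0.051 in edgeR). Myh11 had 14.1 ± 7.11 against 41.3 ± 32.7 CPM with overlapping groups (-1.60, SE 0.49, unadjusted p 0.0076 in edgeR). The genes of the rule chose the cells, which bounds how far they could differ. Ugdh was not part of the rule. The signs of Pi16, Dpp4, Sema3c, Smpd3 and Ugdh changed under some alternatives.

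With no gene called, the lists are given by sign, beside 5922 of 11879 genes higher and a median of -0.00 over all genes. Of the 29 genes of Pi16 and Dpp4 fibroblasts, 26 were higher in the endothelial knockouts (median log2 fold change 0.21), among them Ly6c1 (0.53), Procr (0.38), Creb5 (0.33) and Loxl1 (0.23). Clec3b, Cd248 and Opcml were lower. The genotypes overlapped for each of the 29, while 6.2% of all genes had groups that do not overlap. Of the 29, 1 had an unadjusted p under 0.05 in edgeR's quasi-likelihood test. The make-up of the gated cells differed by library too, and the genotypes overlapped. The share of gated cells with exactly 3 genes, at 65.0%, 67.5%, 69.5% and 51.1% in endothelial knockouts 1 to 4 against 73.1%, 67.7% and 61.1% in flox controls 1 to 3, was lowest in endothelial knockout 4. Whether this sets the sign of the list was not tested.

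Of 14 hyaluronan genes 8 were higher, with a median of 0.09, and Gnpnat1 (0.42) and Tnfaip6 (0.38) led. Of 25 collagens and collagen-processing enzymes 14 were higher (median 0.02), and of 17 elastic fibre genes 9 (0.04). Of 19 proteoglycans and glycoproteins 7 were higher (-0.03), with Cilp at 0.58 and Lum, lumican, at -0.49 with 383 ± 70.4 against 539 ± 80.4 CPM. These medians lay close to that of all genes.

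Of 17 Wnt pathway genes 10 were higher, with a median of 0.19. Wnt10b had 53.0 ± 9.90 CPM in the endothelial knockouts and 37.5 ± 8.56 in the flox controls (log2 fold change 0.51), and Dkk2, a Wnt antagonist, 16.7 ± 4.15 and 6.67 ± 4.64 (1.05), both without overlap. Of 23 complement and chemokine genes 16 were higher (median 0.15). Ccl2 had 557.5, 776, 1048 and 1086 CPM in endothelial knockouts 1 to 4, against 369, 557.5 and 540.3 CPM in flox controls 1 to 3 (0.83), and Ccl8 (0.78), Ccl11 (0.60) and Cfb (0.45) had the same sign. Ccl2 of the lowest knockout equalled that of flox control 2 to the digit shown.

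The lists on transport, amino acid lack and salt had medians near that of all genes. Of 19 amino acid transporters 10 were higher (median 0.03), with the taurine transporter Slc6a6 at 0.78 and Slc36a1 at 0.41. Slc6a6 had 228, 228, 642.5 and 213 CPM in endothelial knockouts 1 to 4, against 162.5, 202 and 210.2 CPM in flox controls 1 to 3, and its log2 fold change was 0.23 without endothelial knockout 3. Of 22 targets of ATF4, the stress factor that answers a lack of amino acids, 7 were higher (-0.10). Of 12 osmotic stress genes 3 were higher (-0.13). Among these, Akr1b3, aldose reductase, had 84.6 against 68.5 CPM and Slc5a3, the myo-inositol transporter, 24.5 against 37.4 CPM. Of 12 genes of salt hormones and their receptors 8 were higher (0.07).

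Of 17 myofibroblast genes 7 were higher (-0.09), of 14 cell cycle genes 5 (-0.16), of 22 interferon genes 14, of 15 adipogenic genes 11, and of 24 TGF-beta and BMP genes 13 (0.02). Mki67, the proliferation marker, had 1.02 ± 0.89 against 7.89 ± 5.90 CPM with overlapping groups.

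The genotype effect in gated cells was set against that in other Pdgfra fibroblasts of the same libraries. No gene of 12297 (0%) passed the interaction test, edgeR's quasi-likelihood test with the library as a block, and 430 had an unadjusted p under 0.05. The smallest p was that of Tac1, the precursor of substance P. It had 8.59, 20.9, 9.47 and 6.19 CPM in gated cells of the endothelial knockouts, against 6.68, 4.51 and 3.77 CPM in those of the flox controls. In other fibroblasts it had 5.42, 15.2, 4.52 and 2.06 CPM, against 17.8, 9.80 and 30.9 CPM. The effects differed by 2.28 on the log2 scale (SE 0.35), with an adjusted p of 0.138 in that test. Ankrd42 (1.17, SE 0.25) and the transcription factor Msx1 (0.87, SE 0.19) followed, each with an adjusted p of 1.00 in edgeR.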

How the data were processed

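Gene expression in single cells of mouse aorta was measured in 7 libraries (BD Rhapsody). The authors deposited unnormalized UMI counts for 31253 genes by barcode, 1 matrix per library. Every deposited barcode had at least 500 UMIs. The submitters' processing notes list the build mm10 and the tools STARsolo 2.7.10a, CASAVA 1.8 and Seurat, with no role for each. Coordinates are those of GENCODE vM21 on GRCm38, to which 99.5% of gene IDs matched. Libraries are grouped by genotype and numbered as in their names, since a label of flox control 2 gives another replicate number. Same numbers mark no stated pair.

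Cells with at least 200 genes and at most 25% mitochondrial UMIs were kept and gated as described. Doublets were called with Scrublet (expected rate 0.06, scanpy 1.11.5), which marked 0.869% to 2.07% of kept cells, and were left in except in an alternative. Compared classes among kept cells without Pdgfra were leukocytes (Ptprc), endothelial cells (Pecam1 and Cdh5) and smooth muscle (at least 3 UMIs of Myh11). UMIs were summed per library and class, since cells are not replicates. Genotypes were compared with edgeR 4.0.16 in R 4.3.3 (TMM, filterByExpr, quasi-likelihood test, Benjamini-Hochberg adjusted p under 0.05). The interaction had the library as a block, and shares were tested by exact permutation. Fold changes are endothelial knockout over flox control. The test was checked on simulated data with 200 changed genes. DESeq2 1.42.0, RLE scaling, no filter, other gates, thinning to 2000 UMIs, doublets and shared barcodes removed, a replicate block and each library left out were the alternatives.

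The members, the 35 gene lists and the rules were chosen with earlier results of these data known. Named were Slc38a2, the gate genes, the 10 genes of smallest p with mean log2 CPM of 4 or more where none pass, 3 for the interaction, 15 each way by ratio among genes of at least 50 UPM in the higher class with the same sign in all 7 libraries, and list members of smallest p or highest level. A gene that the rule by ratio would name is not reported here. Other genes named, such as Cyp51, Mki67 and those of the depth steps, were chosen after their values were seen.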

Additional observations from a re-analysis of the deposited data

Results flagged for a closer look

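In 25 groups of 4 libraries checked for a value far from the rest, 2 such values were found. Chance gives about 1 for every 20 groups checked, so 2 among 25 is not far from it. The flox controls have 3 libraries and were not checked in this way. Both belong to endothelial knockout 4. After thinning to 2000 UMIs, 23.4% of its Pdgfra fibroblasts were gated, against 9% to 10.9% in the other endothelial knockouts, a gap of 0.866 of the whole range, above Dixon's 95% critical value for 4 samples. Its median gated cell had 5082 UMIs, against 7251.5 to 7487 in the other endothelial knockouts, a gap of 0.902 of the range. Flox control 3 had a lower median, 4865 UMIs.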

How the results depend on the processing

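In the genotype comparison of gated cells, where edgeR called 0 genes, DESeq2 called 4 (2 higher, 2 lower), and edgeR with no filter on low counts 32 (13 higher, 19 lower, of 20895 genes). Leaving out 1 library at a time gave 0 to 2 calls, the 2 being Npnt and Tagln, both lower, without flox control 2. RLE scaling, other gates, the mitochondrial limit of 10%, and removal of doublets or shared barcodes gave 0. The interaction gave 26 calls (18 with a positive, 8 with a negative difference, of 22176 genes) with no filter on low counts and 0 without any 1 library. The cause of these differences was not tested. The log2 fold changes of the 10 named genes, Slc38a2, Pcsk6 and Pla1a kept their sign under all 18 alternatives. The 10 genes were picked by p in these same libraries. Sign changes were found in the others of the 6 gate genes and in Ugdh. Pi16 was -0.44 to 0.0057 with 1 library left out, the highest without flox control 3. Dpp4 was -0.026 with the replicate block, -0.058 in cells with exactly 3 genes and -0.11 to 0.86 with 1 library left out, the lowest without endothelial knockout 4. Sema3c was -0.0027 at 4 or more genes, -0.0056 at 2 or more, -0.16 with the replicate block, -0.12 at 5 or more, -0.15 at exactly 3, -0.018 without shared barcodes, and -0.22 to 0.26 with 1 library left out, below 0 without endothelial knockout 4 or flox control 1. Smpd3 was 0.13 at 2 or more genes and -0.20 to 0.15 with 1 library left out, above 0 without endothelial knockout 3 or flox control 2. Ugdh was -0.16 at 5 or more genes. The library numbers as a replicate block gave 0 calls (464 genes at an unadjusted p under 0.05). Same-numbered libraries had correlations of 0.133, 0.161 and -0.135 in their deviations, so the numbers were not taken as pairs. The shares kept their direction under other gates, the mitochondrial limit, removal of doublets, thinning, and each library left out without thinning. With thinning and 1 library left out, the difference was -0.502 to 1.88 percentage points among kept cells and -0.0986 to 4.72 among fibroblasts, below 0 without endothelial knockout 4. Every share kept a p above 0.05. The log2 ratio of Ugdh against other fibroblasts was 1.87 to 2.08. The alternatives of thinning with a library left out, 5 or more genes, exactly 3 genes and shared barcodes were chosen after seeing the data. Gated cells of flox control 3 held 1371659 UMIs, the fewest, which limits genes of low level most. Genes with few UMIs in the cells with 5 or 6 genes have ratios that rest on the added 1 UPM.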
